A study of Homo sapiens with 24 samples.

Results

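The actin cytoskeleton and the actomyosin machinery were followed through 40 genes in human glioma cells treated with 2 plant phenols. The genes were taken from the deposited expression tables by symbol, from a fixed list, and all 40 were found among 34229 gene symbols. They hold 3 actins, 3 genes of monomer turnover, 8 of filament nucleation, capping and Cdc42 signalling, 7 of myosin II, 4 tropomyosins, 5 other regulators of contraction, 4 crosslinkers, 4 adhesion adaptors and 2 linkers to the membrane.

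Actin monomers assemble into filaments that push the cell edge forward, hold the cell's shape and, when myosin II pulls on them, generate contractile force. Tropomyosins, calponins and caldesmon lie along the filament and set how myosin reaches it, while crosslinkers such as filamin and alpha-actinin tie filaments into networks and bundles. Vinculin, talin, zyxin and paxillin couple these bundles to integrins at focal adhesions, which migrating and invading glioma cells use for traction. Many of these genes are known targets of serum response factor (SRF), a transcription factor that binds a DNA motif called the CArG box and whose coactivators are held in the cytoplasm by free actin monomers.

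1321N1, an established glioma line labelled grade II, and LN18, an established line labelled grade IV, were each given vehicle (control), epigallocatechin-3-gallate (EGCG, the main catechin of green tea), hydroxychavicol (HC, a phenol of betel leaf) or both (EGCG+HC) for 24 h. The dose of EGCG was 50 µg/ml throughout. HC was given at 20 µg/ml to 1321N1 and at 10 µg/ml to LN18, alone or with EGCG. 1321N1 was grown in 10% and LN18 in 5% serum, so that line, HC dose and serum cannot be told apart in any difference between the lines. Controls received ethanol, the solvent of HC. Each line is a single cultured line, and neither carries an engineered change named in the labels.

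Poly(A) RNA was sequenced from 3 libraries of each line and treatment, 24 in all, described in the labels as independent tests. Levels are in RPKM, reads scaled to the length of the gene and to the counted reads of the library, so that they can be set side by side between genes. Depth recovered from the steps between low values lay between 13.6 M and 32.2 M counted reads per library (M, mega). Of 5 glial markers, VIM lay between 948 and 1038 RPKM in 1321N1 controls and between 263 and 276 in LN18 controls. NES lay between 1.28 and 1.36 in 1321N1 controls and did not pass 0.055 in LN18 controls. GFAP, which defines astrocytes, was at most 0.158 RPKM in the controls of both lines, and S100B and AQP4 were not listed in them. VIM was thus the one marker high in both lines, and the glial label had little support. Of the 1321N1 EGCG libraries, replicate 1 resembled the controls most, and 263 genes above 1 RPKM in it were listed at 0 in replicates 2 and 3, with 0 members among them. Counts of members called in tests that use 1321N1 EGCG are therefore given with and without replicates 2 and 3. Other values that rest on 1321N1 EGCG, such as its share of all RPKM and the pathway lists, use all 3 libraries.

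A gene was tested where its mean over the libraries compared was at least 1 RPKM. It was called higher or lower where its p in limma, adjusted by the method of Benjamini and Hochberg over all genes tested, was 0.05 or less and the fold change was at least 1.5. Fold changes are on the scale log2(RPKM + 1), which understates the change of low genes, and every adjusted p is from limma. Of the 40 members, 37 or 38 could be tested in each treatment comparison. ACTA2, CNN1 and MYL9 fell below the limit in 1321N1, apart from ACTA2 with EGCG+HC, and ACTA2, FLNC and, outside the EGCG comparison, CNN1 in LN18.

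Before treatment the actin genes were among the most abundant transcripts of both lines. Mean ACTB ranked 9th by RPKM of 25597 genes listed in 1321N1 controls and 14th of 26303 in LN18 controls, and TMSB10, a thymosin that binds actin monomers, ranked 2nd and 5th. The members together held 3.69% ± 0.102 of all RPKM in 1321N1 controls and 2.83% ± 0.0429 in LN18 controls (SD, n = 3). Of 38 members tested, 10 were higher in LN18 controls than in 1321N1 controls (21.9% of all 13293 genes tested) and 8 were lower (20.7%, and 42.6% in either direction). These shares lie near those of all genes and are not a result about the members as a group. Single contractile genes differed in both directions. MYL9, a myosin regulatory light chain of smooth muscle type, stood at 26.7, 27.5 and 26.9 RPKM in LN18 and at 0, 0 and 0.0440 in 1321N1. Tropomyosin TPM2 stood at 89.1 ± 3.74 against 2.63 ± 0.296 RPKM (mean ± SD, n = 3), MYLK, the myosin light chain kinase, at 41.6 ± 0.310 against 3.93 ± 0.113, and MYH10, the non-muscle myosin heavy chain IIB, at 26.9 ± 0.261 against 3.51 ± 0.257. These 4 genes were all higher in LN18, but MYL9 passed the 1 RPKM limit of this test only through its LN18 libraries. FLNC, the filamin of muscle, ran the other way, at 10.4 ± 0.815 RPKM in 1321N1 and at most 0.033 in LN18, and passed the limit only through 1321N1.

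With EGCG+HC the members as a group lost ground in both lines. Their share of all RPKM was 1.79% ± 0.0346 in 1321N1 and 1.63% ± 0.0307 in LN18, so that no treated library overlapped its controls, which lay between 3.61 and 3.80% and between 2.80 and 2.88%. In 1321N1, 19 of 38 tested members were lower (18.0% of all 13912 genes tested were) and 0 were higher by limma (23.1% of all genes were, 41.1% in either direction, and 5 members were higher at an unadjusted p under 0.05). In LN18, 24 of 37 were lower (22.2% of all 13807 genes tested) and 3 higher (24.1%, and 46.3% in either direction). The median member changed by -0.58 on the log2 scale in 1321N1 and by -0.82 in LN18, while the median of all genes tested stood at -0.01 and 0.01. In these bulk libraries, fewer cells of a kind and less RNA per cell cannot be told apart.

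The single treatments differed in reach. In 1321N1, HC alone lowered 23 of 37 tested members (17.7% of all 13408 genes) with a median of -0.72 and raised 0 by limma (18.8% of all genes, 36.6% in either direction, and 2 members at an unadjusted p under 0.05). EGCG alone lowered 4 (1.83% of all 13255 genes) with a median of -0.21 and raised 0 by limma (3.14%, 4.97% in either direction, and 2 members at an unadjusted p under 0.05). The share of all RPKM was 1.51% ± 0.0359 with HC and 2.85% ± 0.166 with EGCG. In LN18, HC alone at the lower dose lowered 6 of 37 (2.26% of all 13392 genes) with a median of -0.35 and raised 0 by limma (9.48%, 11.7% in either direction, and 2 members at an unadjusted p under 0.05), and EGCG alone lowered 8 and raised 1 of 38 (9.70 and 9.11% of all 13157 genes, 18.8% in either direction) with a median of -0.22. The share of all RPKM was 2.08% ± 0.0669 with HC and 2.53% ± 0.0381 with EGCG in LN18.

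The counts of the weaker treatments moved with the scaling. For 1321N1 EGCG, a median-ratio scaling shifted the median of all genes from 0.10 to 0.00 and gave 7 lower members, with all calls split 258 higher to 372 lower in place of 416 to 243. For LN18 HC it shifted the median of all genes from 0.10 to 0.00 and gave 11 lower members, with 921 higher and 528 lower in place of 1269 and 302. The 1321N1 EGCG count was 1 without EGCG replicate 1, 1 without control replicate 1, and 5 without EGCG replicates 2 and 3, a choice made after seeing the data.

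**Figure D1:**
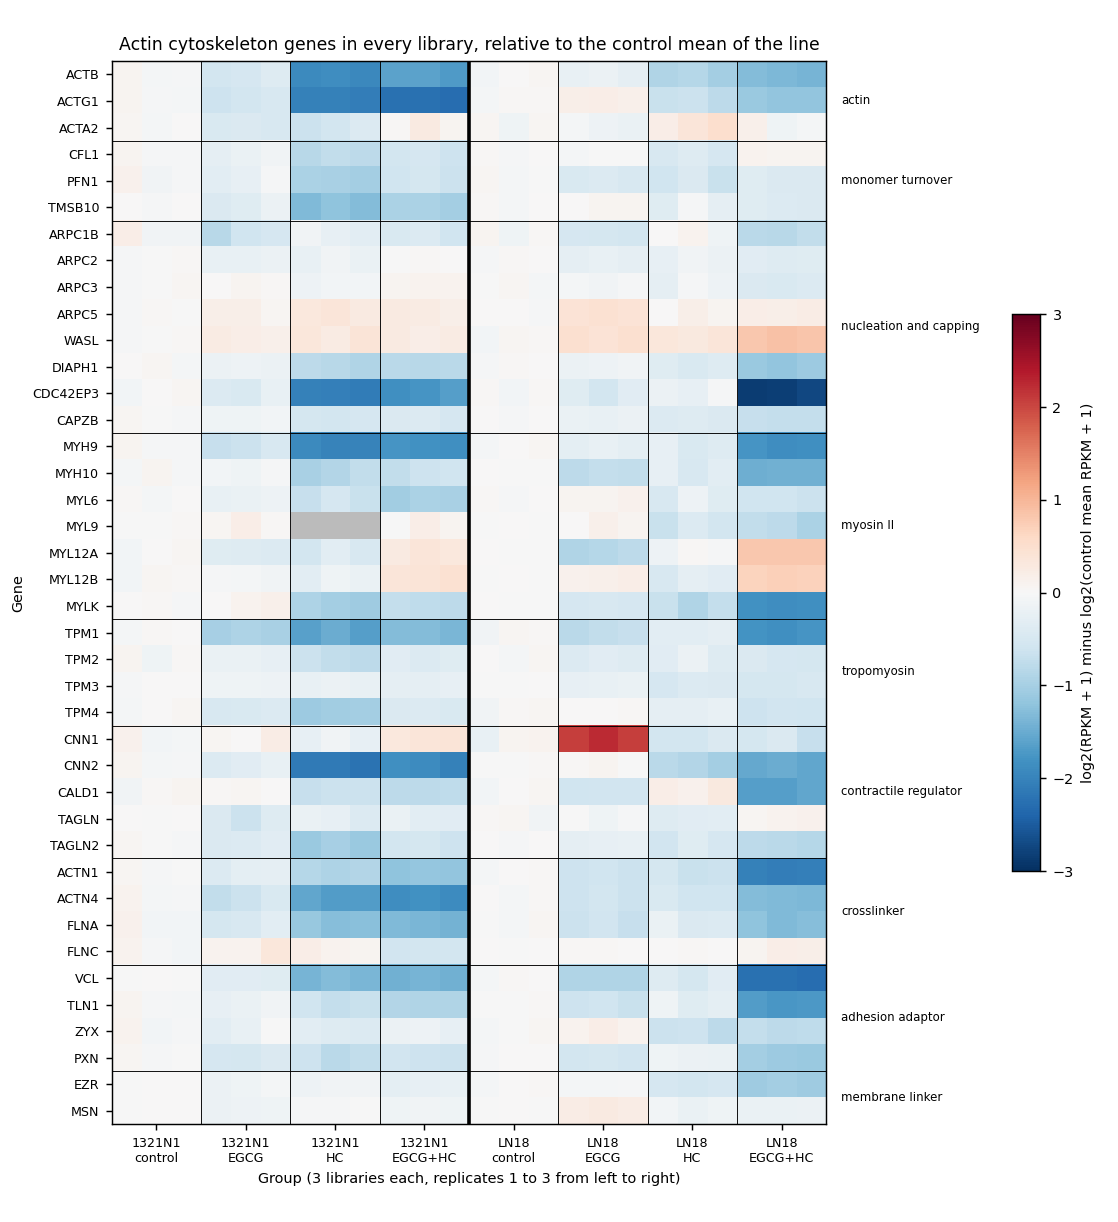
Each row is 1 of the 40 genes, grouped by role, and each column is 1 of the 24 libraries (3 per group). Colour gives log2(RPKM + 1) minus the value of the line's control mean, blue for lower, red for higher and grey for MYL9, which was not listed with HC in 1321N1. Blue fills the HC and EGCG+HC blocks of 1321N1 and the EGCG+HC block of LN18, and the deep red block is CNN1 with EGCG in LN18.

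A CArG box, searched on both strands in windows from 250 bases before to 50 after each transcription start in RefSeq (GRCh38.p14), was found for 6 of the 36 members that have a window, 16.7%, and for 1.60% of 27305 gene symbols with one (1.29% of 35116 windows). The motif is a palindrome, so that both strands give the same match. These members are ACTG1, ACTN1, CNN2, FLNA, MYLK and TPM4, and their windows are shown, with the box in capitals, because they carry the motif by which SRF is known to reach actin genes.
ACTG1, chr17:81512864-81512913, minus strand: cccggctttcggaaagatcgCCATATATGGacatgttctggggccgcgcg
CNN2, chr19:1026499-1026548, plus strand: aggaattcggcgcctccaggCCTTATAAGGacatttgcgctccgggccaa
FLNA, chrX:154374699-154374748, minus strand: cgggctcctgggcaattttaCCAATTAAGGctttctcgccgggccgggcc
TPM4, chr19:16067345-16067394, plus strand: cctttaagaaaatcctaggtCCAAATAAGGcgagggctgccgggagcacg
ACTN1, chr14:68977708-68977757, minus strand: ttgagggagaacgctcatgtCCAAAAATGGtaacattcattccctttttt
MYLK, chr3:123620613-123620662, minus strand: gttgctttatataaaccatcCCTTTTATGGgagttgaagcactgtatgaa
The boxes begin 94 bases before the start in ACTG1 and FLNA, 89 in CNN2 and 173 in TPM4. The window of ACTN1 (box 171 bases before its start) begins 1545 bases inside the gene and that of MYLK (94 bases) 263670 bases inside it, so that both belong to internal starts. ACTB, ARPC1B, MYL9 and TAGLN have no window in the table.

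Of these 6 members, 6 were lower in 1321N1 with HC and 5 with EGCG+HC (17.7 and 18.0% of all genes). With EGCG they changed by between -0.55 and 0.09 on the log2 scale, under the limit, so that 0 were lower (1.83% of all genes). Of all members tested in 1321N1, with or without a box, 23 of 37 were lower with HC and 19 of 38 with EGCG+HC. In LN18 6 of the members with a box were lower with EGCG+HC, 4 with HC and 2 with EGCG (22.2, 2.26 and 9.70% of all genes). Of all members tested there, 24 of 37, 6 of 37 and 8 of 38 were lower. Whether members with a box differed from those without one was not tested. Genes outside the member list with a box in such a window, were looked at after the members were seen. With HC, 22.7% of 119 were lower in 1321N1 and 4.10% of 122 in LN18, against 17.7 and 2.26% of all genes. With EGCG+HC, 21.3% of 122 were lower and 23.0% higher in 1321N1, and 24.4% of 123 were lower and 17.9% higher in LN18, against 18.0 and 23.1%, and 22.2 and 24.1%, of all genes. A match is a description of the letters in the window, and binding was not measured.

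Both cytoplasmic actins fell in each line. ACTB, cytoplasmic beta-actin (GRCh37 chr7:5566040-5603533, minus strand), stood at 2252, 2067 and 2104 RPKM in the 1321N1 controls, at 1457, 1500.5 and 1648 with EGCG, at 571, 586 and 557 with HC and at 699, 699 and 662 with EGCG+HC. No 2 of these 4 groups overlapped, and HC alone gave the lowest values. In LN18 ACTB stood at 1113, 1199 and 1232 in controls, at 1011, 1044 and 978 with EGCG, at 636, 648 and 587 with HC and at 479.7, 461 and 451 with EGCG+HC, again without overlap but with the combination lowest. The EGCG+HC mean was 0.321 times control in 1321N1, or -1.64 ± 0.05 (SE, adjusted p = 1.32e-07) on the log2 scale, and 0.393 times control in LN18, -1.35 ± 0.04 (SE, adjusted p = 2.14e-07). ACTB thus held 0.792% of all RPKM in 1321N1 controls and 0.252% with EGCG+HC, and 0.446 and 0.158% in LN18.

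ACTG1, cytoplasmic gamma-actin (chr17:79476439-79490873, minus strand), whose CArG window is shown above, stood at 945, 861 and 859 RPKM in 1321N1 controls, 574, 603 and 635 with EGCG, 218, 218 and 208 with HC and 187, 186 and 183 with EGCG+HC. The change with EGCG+HC, -2.25 ± 0.04 (SE, adjusted p = 4.9e-08), was the largest fall of any member in 1321N1. In LN18 it stood at 956, 1022 and 1025 in controls, 1123, 1146 and 1111 with EGCG, 625, 637 and 580.2 with HC and 459, 442 and 442 with EGCG+HC, a change of -1.16 ± 0.04 (SE, adjusted p = 1.71e-07). EGCG alone thus lay below control in every 1321N1 library and above it in every LN18 library, and the 2 responses differed by 0.73 ± 0.07 (SE, adjusted p = 1.02e-05), LN18 minus 1321N1. ACTB and ACTG1 share few stretches of 50 bases with each other (0.6 and 0.5% of each transcript), although 12.1% of those of ACTB occur in some other gene. ACTA2, smooth muscle alpha-actin, stayed at or below 1.53 RPKM in all 24 libraries.

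The genes of monomer turnover fell with HC in 1321N1. TMSB10 stood at 3921, 3754 and 3928 RPKM in 1321N1 controls and at 1549, 1683 and 1574 with HC, a change of -1.27 ± 0.04 (SE, adjusted p = 3.36e-07). In LN18 its HC libraries, 1499, 1871 and 1603, overlapped the controls, 1981, 1837 and 1936, and the responses differed by 1.06 ± 0.11 (SE, adjusted p = 4.8e-06). PFN1, profilin, which loads monomers onto growing ends, changed by -0.98 ± 0.06 with HC in 1321N1 and by -0.56 ± 0.07 in LN18, the latter short of the fold limit. CFL1, cofilin, which severs old filaments, fell with HC in 1321N1 (-0.78 ± 0.05) but stood at 273, 265 and 267 RPKM with EGCG+HC in LN18 against 257, 246 and 255 in controls, slightly above all of them. Its response to EGCG+HC was higher in LN18 than in 1321N1 by 0.65 ± 0.05 (SE, adjusted p = 9.56e-07). With EGCG+HC, TMSB10 (-0.98 ± 0.04) and PFN1 (-0.58 ± 0.06) were called lower in 1321N1, PFN1 just at the limit and not without control replicate 1 (-0.52), without EGCG+HC replicate 1 (-0.58) or 3 (-0.56), or with median-ratio scaling (-0.57), while in LN18 TMSB10 (-0.40 ± 0.04), PFN1 (-0.41 ± 0.04) and CFL1 (0.09 ± 0.03) stayed under the limit. PFN1 shares 22.7% of its 50-base stretches with other genes and is uncertain to that extent.

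The nucleation and capping genes did not move as 1 group. The Arp2/3 subunits ARPC2, ARPC3 and ARPC5, which start branched networks, changed by less than the fold limit in every treatment of both lines, between -0.43 and 0.43 on the log2 scale. ARPC1B was lower with EGCG in 1321N1 (-0.64 ± 0.11, and not called at -0.54 without control or EGCG replicate 1) and with EGCG+HC in LN18 (-0.79 ± 0.06), but 88.5% of its stretches are shared with another gene model, so that its level is uncertain. WASL, the neuronal WASP that switches Arp2/3 on, moved up: in LN18 it stood at 10.6, 11.7 and 11.6 RPKM in controls and at 20.6, 21.6 and 20.9 with EGCG+HC, all 3 above the controls, a change of 0.84 ± 0.04 (SE, adjusted p = 1.62e-06). In 1321N1 it changed by 0.24 ± 0.04, under the limit.

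DIAPH1, a formin that elongates unbranched filaments, went down in both lines. It stood at 40.3, 41.8 and 38.3 RPKM in 1321N1 controls and at 22.4, 22.1 and 22.5 with EGCG+HC, with no overlap. In LN18 it stood at 45.0, 47.3 and 46.9 in controls and at 21.0, 19.9 and 21.2 with EGCG+HC, again with no overlap. The changes were -0.82 ± 0.04 (SE, adjusted p = 1.36e-06) and -1.13 ± 0.04 (SE, adjusted p = 1.72e-07). CAPZB, a subunit of the protein that caps growing ends, was called lower with EGCG+HC in LN18 (-0.71 ± 0.03) and changed by -0.45 ± 0.04 in 1321N1.

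CDC42EP3, an effector of the GTPase Cdc42 that organises actin through septins, gave the largest fall of any member in LN18. It stood at 22.6, 20.9 and 22.7 RPKM in LN18 controls, at 16.8, 14.7 and 17.1 with EGCG, at 19.4, 18.4 and 21.4 with HC and at 2.21, 2.28 and 2.48 with EGCG+HC. HC alone overlapped the controls, and the combination left 0.105 times the control mean, -2.79 ± 0.05 (SE, adjusted p = 3.03e-08). In 1321N1 the same gene stood at 12.4, 13.3 and 13.8 in controls and 9.62, 9.37 and 11.1 with EGCG. HC alone gave the lowest values there, 2.47, 2.43 and 2.33, and EGCG+HC gave 2.93, 3.17 and 3.48, a change of -1.76 ± 0.06 (SE, adjusted p = 3.82e-07).

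Myosin II is built from 2 heavy chains with regulatory and essential light chains. The heavy chain MYH9 (non-muscle IIA, chr22:36677326-36784055) stood at 218, 203 and 201 RPKM in 1321N1 controls, 128, 133 and 149 with EGCG, 54.1, 50.5 and 50.9 with HC and 59.6, 57.7 and 57.5 with EGCG+HC. In LN18 it stood at 182, 191 and 199 in controls, 156, 163 and 156 with EGCG, 161, 139 and 146 with HC and 54.9, 51.9 and 52.7 with EGCG+HC. Both lines ended near the same level with the combination, 0.281 and 0.279 times control, with changes of -1.81 ± 0.04 (SE, adjusted p = 6.83e-08) and -1.82 ± 0.04 (SE, adjusted p = 4.65e-08), but only in 1321N1 was HC alone called, at -1.98 ± 0.05 against -0.36 ± 0.06 in LN18. The HC responses differed by 1.62 ± 0.08 (SE, adjusted p = 1.86e-08). MYH10 stood at 27.1, 26.6 and 26.8 RPKM in LN18 controls and at 9.03, 9.25 and 9.21 with EGCG+HC, -1.45 ± 0.03 (SE, adjusted p = 3.85e-08). In 1321N1, where it is low, it went from 3.35, 3.81 and 3.37 to 1.71, 1.95 and 1.96, -0.65 ± 0.07 (SE, adjusted p = 6.28e-05).

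Of the regulatory light chains, MYL12A and MYL12B rose in LN18 with EGCG+HC, while MYL9 fell. MYL12A and MYL12B, neighbours on chromosome 18 (3247479-3256234 and 3261477-3278459, GRCh37) that encode nearly the same non-muscle regulatory light chain, were among the 3 members called higher in LN18 with EGCG+HC. MYL12A stood at 39.2, 38.5 and 38.5 RPKM in LN18 controls, 20.2, 20.9 and 21.9 with EGCG, 34.5, 39.4 and 37.7 with HC and 68.0, 68.5 and 68.1 with EGCG+HC. EGCG alone thus lowered it (-0.85 ± 0.03) and the combination raised it, 0.80 ± 0.02 (SE, adjusted p = 1.33e-07). MYL12B stood at 280.3, 286 and 282 in controls and 453, 465 and 455 with EGCG+HC, 0.69 ± 0.02 (SE, adjusted p = 2.45e-07), which was 0.44 and no longer called with quantile normalization. In 1321N1 the EGCG+HC libraries also lay above all controls, at 82.2, 87.4 and 84.7 against 64.4, 68.1 and 71.2 for MYL12A and 240.3, 245 and 256 against 175, 194 and 192 for MYL12B, changes of 0.32 ± 0.05 and 0.40 ± 0.05 that missed the fold limit. Against HC alone both were called higher in 1321N1, by 0.77 ± 0.06 and 0.62 ± 0.05, the latter not called with quantile normalization (0.52) or without HC replicate 1 (0.57). MYL12A shares 8.4% of its stretches with MYL12B, so that reads of the 2 can be confused in part.

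The essential light chain fell in both lines, and MYL9 in LN18. MYL6, the essential light chain, went from 80.7, 75.2 and 79.1 RPKM to 37.4, 40.4 and 39.6 with EGCG+HC in 1321N1, -0.98 ± 0.04 (SE, adjusted p = 9.17e-07), and from 110.2, 105 and 108 to 71.0, 71.0 and 68.7 in LN18, -0.61 ± 0.03 (SE, adjusted p = 1.13e-06). MYL9 went from 26.7, 27.5 and 26.9 to 15.8, 15.4 and 13.4 in LN18, -0.82 ± 0.06 (SE, adjusted p = 7.92e-06). MYLK, which phosphorylates the regulatory light chain to start contraction, stood at 42.0, 41.4 and 41.5 RPKM in LN18 controls, 29.0, 29.7 and 29.0 with EGCG, 25.7, 21.7 and 24.8 with HC and 11.1, 10.7 and 11 with EGCG+HC, 4 groups with no overlap. Its change with EGCG+HC was -1.84 ± 0.03 (SE, adjusted p = 2.3e-08) in LN18 and -0.75 ± 0.05 (SE, adjusted p = 5.92e-06) in 1321N1, where it went from 3.96, 4.02 and 3.80 to 2.0, 1.92 and 1.85. In LN18 the kinase gene was thus lower, and MYL12A and MYL12B, which encode its substrate, higher, in the same libraries.

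Of the tropomyosins, TPM1 moved most. In 1321N1 it stood at 45.0, 48.3 and 47.2 RPKM in controls, 23.1, 24.1 and 23.2 with EGCG, 14.4, 15.9 and 14.3 with HC and 18.4, 18.3 and 17.6 with EGCG+HC, all treated libraries lying below the controls. In LN18 it stood at 20.4, 23.0 and 22.7 in controls, 12.2, 12.9 and 13.1 with EGCG, 17.4, 17.6 and 18.0 with HC and 5.62, 5.45 and 5.74 with EGCG+HC, 4 groups without overlap. It was lower with EGCG alone in both lines (-0.96 ± 0.04 and -0.74 ± 0.05), and changed by -1.32 ± 0.04 (SE, adjusted p = 1.7e-07) and -1.80 ± 0.05 (SE, adjusted p = 1.24e-07) with EGCG+HC. TPM4, with a CArG window and 29.9% of its stretches shared with other genes, fell with HC in 1321N1, from 139, 146 and 150.3 to 68.1, 69.9 and 70.8, and was higher again with EGCG+HC than with HC, at 107, 109 and 106 (0.62 ± 0.03, and 0.55 and not called with quantile normalization). TPM2 was called lower only with HC in 1321N1 (-0.72 ± 0.08), where it lay under 3 RPKM, and TPM3 changed by between -0.51 and -0.14 in the 6 treatment comparisons, under the limit in each.

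**Figure D2:**
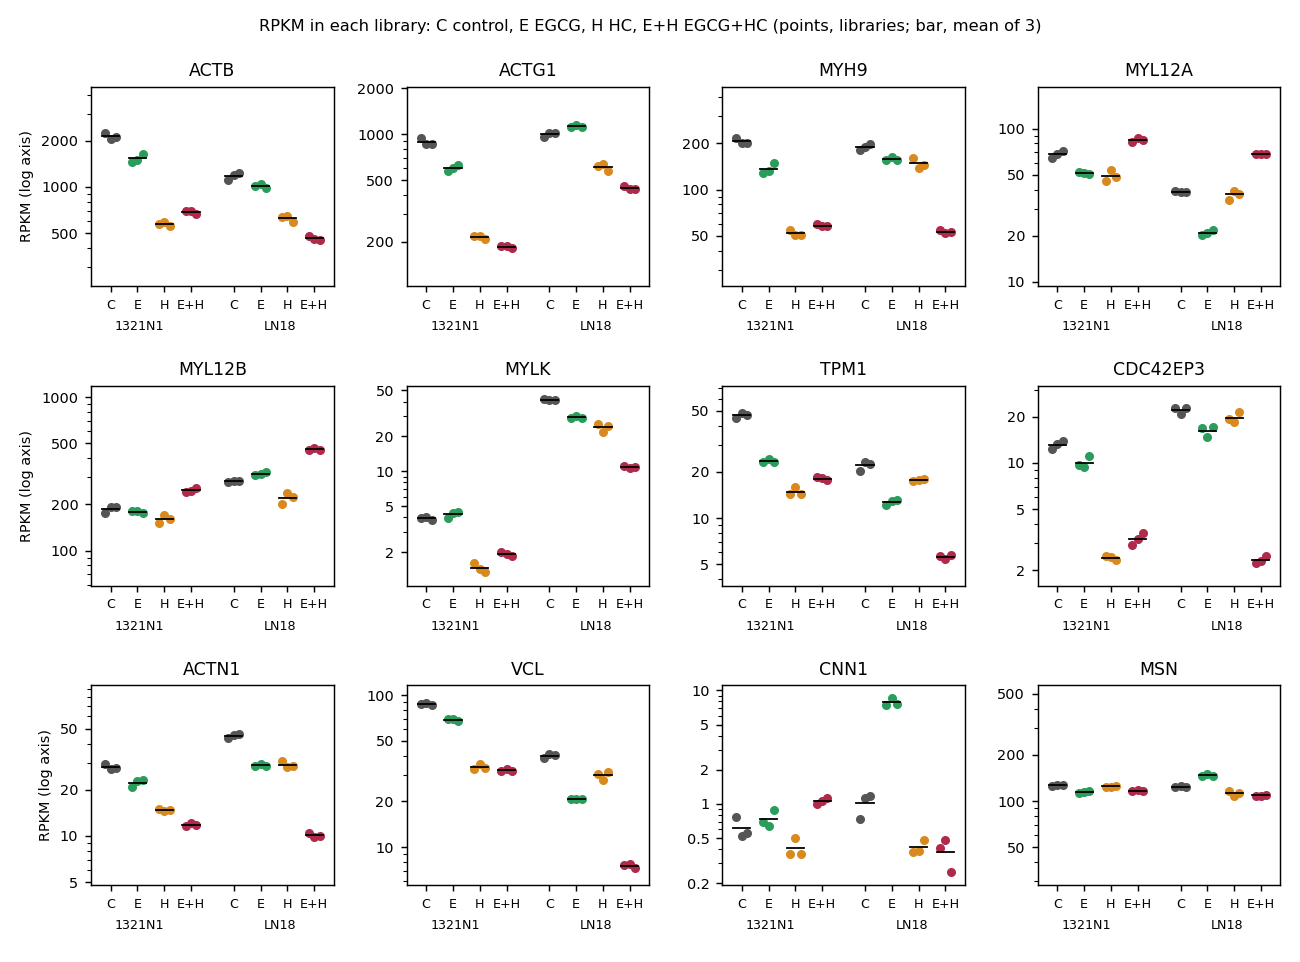
Each panel plots RPKM on a log axis for 1 gene in 1321N1 (left) and LN18 (right) with control (C), EGCG (E), HC (H) and EGCG+HC (E+H). Points are libraries and bars are means of 3. ACTB and MYH9 drop with HC in 1321N1 but drop furthest with EGCG+HC in LN18, MYL12A and MYL12B are highest with EGCG+HC in LN18 relative to its controls, and MSN stays between 108 and 149 RPKM.

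Among the other regulators of contraction, CNN2 and CALD1 fell in both lines. CNN2, a calponin that restrains actomyosin, stood at 44.8, 40.3 and 40.7 RPKM in 1321N1 controls, 8.90, 8.91 and 8.18 with HC and 10.9, 10.6 and 9.54 with EGCG+HC, and in LN18 at 48.6, 48.3 and 49.8 in controls, 27.3, 25.9 and 23.6 with HC and 16.3, 16.9 and 15.9 with EGCG+HC. No treated library of these overlapped its controls, and the EGCG+HC changes were -1.92 ± 0.06 (SE, adjusted p = 2.37e-07) and -1.52 ± 0.03 (SE, adjusted p = 4.34e-08). CALD1, caldesmon, which blocks myosin on the filament, stood at 21.4, 22.8 and 23.4 RPKM in LN18 controls, 26.2, 24.9 and 27.9 with HC and 6.53, 6.54 and 6.97 with EGCG+HC, -1.61 ± 0.05 (SE, adjusted p = 1.16e-07). HC alone lay above control there (0.22 ± 0.06, under the limit) and below it in 1321N1, where CALD1 went from 31.0, 34.0 and 35.1 to 20.3, 20.8 and 21.1, and the responses to HC differed by 0.88 ± 0.08 (SE, adjusted p = 1.66e-06). With EGCG+HC it reached 18.9, 18.9 and 19.1 in 1321N1, -0.78 ± 0.05 (SE, adjusted p = 4.79e-06).

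CNN1, the calponin of smooth muscle, was the one member called higher with a single agent. It stood at 0.732, 1.14 and 1.18 RPKM in LN18 controls and at 7.51, 8.51 and 7.55 with EGCG, 2.14 ± 0.10 (SE, adjusted p = 4.45e-06), but at 0.376, 0.385 and 0.486 with HC and 0.409, 0.481 and 0.251 with EGCG+HC. In 1321N1 it stayed between 0.362 and 1.12 RPKM in all 12 libraries, and the EGCG responses of the lines differed by 2.04 ± 0.14 (SE, adjusted p = 1.22e-06). The LN18 EGCG libraries (mean 7.85 RPKM) alone carried CNN1 over the 1 RPKM limit in that test and in the test against the sum below. Both tests therefore rest on the group in which CNN1 is high. TAGLN, transgelin, stayed between 1.54 and 3.19 RPKM in all 24 libraries and was called in no treatment comparison, with 82.4% of its stretches shared. TAGLN2, its relative of non-muscle cells, fell with HC in 1321N1 (-1.08 ± 0.04) and with EGCG+HC in LN18 (-0.82 ± 0.03).

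Of the crosslinkers, ACTN1, ACTN4 and FLNA fell with EGCG+HC in both lines. ACTN1, alpha-actinin of stress fibres (chr14:69340845-69446157), stood at 43.5, 45.2 and 46.2 RPKM in LN18 controls, 28.7, 29.4 and 28.4 with EGCG, 30.8, 28.0 and 28.6 with HC and 10.4, 9.89 and 10.1 with EGCG+HC, -2.05 ± 0.03 (SE, adjusted p = 2.88e-08). The single treatments lay at about the same level and were each called lower. In 1321N1 it went from 29.3, 27.4 and 27.9 to 11.6, 12.1 and 11.8, -1.19 ± 0.04 (SE, adjusted p = 2.61e-07). ACTN4, its close relative, went from 170.4, 153 and 154 to 43.0, 44.7 and 42.0 in 1321N1, -1.86 ± 0.05 (SE, adjusted p = 1.21e-07), and from 149, 144 and 154 to 60.1, 58.5 and 57.9 in LN18, -1.32 ± 0.03 (SE, adjusted p = 7.26e-08). With TPM1 it was lower with EGCG alone in both lines, but its call in 1321N1 ended without control replicate 1 (-0.57), without EGCG replicate 1 (-0.56) and with quantile normalization (-0.57), and in LN18 without control replicate 3 (-0.58), which leaves TPM1. FLNA, filamin A, which joins filaments at right angles, went from 315, 272 and 273 to 113, 111 and 107 in 1321N1, -1.37 ± 0.06 (SE, adjusted p = 1e-06), and from 306, 297 and 318 to 132, 123 and 125 in LN18, -1.27 ± 0.04 (SE, adjusted p = 1.39e-07). FLNC was not called with HC in 1321N1, at 12.0, 11.1 and 11.1 against 11.3, 10.0 and 9.76 RPKM, and lower with EGCG+HC than with HC, at 6.69, 6.71 and 6.72 (-0.69 ± 0.04). It did not pass 0.177 RPKM in LN18.

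Among the adhesion adaptors, VCL, vinculin, which reinforces adhesions under tension, stood at 87.4, 89.2 and 86.8 RPKM in 1321N1 controls, 69.6, 69.4 and 67.9 with EGCG, 32.5, 35.2 and 33.2 with HC and 31.5, 32.7 and 31.9 with EGCG+HC. In LN18 it stood at 38.4, 40.7 and 40.2 in controls, 20.9, 20.9 and 20.9 with EGCG, 30.4, 27.5 and 31.1 with HC and 7.63, 7.70 and 7.33 with EGCG+HC, 0.19 times control. The changes with EGCG+HC were -1.43 ± 0.03 (SE, adjusted p = 6.52e-08) and -2.25 ± 0.04 (SE, adjusted p = 2.45e-08). TLN1, talin, which links integrins to actin, went from 49.9, 46.6 and 45.9 to 25.3, 24.8 and 24.7 in 1321N1, -0.90 ± 0.04 (SE, adjusted p = 9.11e-07), and from 45.5, 45.2 and 46.5 to 13.7, 12.9 and 13.2 in LN18, -1.71 ± 0.03 (SE, adjusted p = 3.76e-08). Groups did not overlap in either line. PXN, paxillin, a scaffold of focal adhesions, went from 23.8, 22.4 and 22.7 to 15.0, 14.7 and 14.2, -0.62 ± 0.04 (SE, adjusted p = 5.05e-06), and from 49.3, 50.7 and 50.5 to 24.2, 22.9 and 22.7, -1.08 ± 0.03 (SE, adjusted p = 1.61e-07), with 35.3% of its stretches shared, most with its antisense gene. ZYX, zyxin, a mechanosensor of stress fibres, was called lower in LN18 with HC (-0.69 ± 0.06) and with EGCG+HC (-0.76 ± 0.04) and changed by -0.19 ± 0.05 with EGCG+HC in 1321N1.

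The membrane linkers differed from each other. MSN, moesin, was called in no treatment comparison, with changes between -0.19 and 0.24. EZR, ezrin, which anchors cortical actin to the plasma membrane, went from 74.4, 77.6 and 79.0 to 36.5, 37.5 and 36.5 RPKM in LN18 with EGCG+HC, -1.04 ± 0.03 (SE, adjusted p = 1.44e-07), and changed by -0.25 ± 0.03 in 1321N1. These responses differed by -0.79 ± 0.04 (SE, adjusted p = 2.66e-08).

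Across the lines, 36 members could be tested with EGCG+HC in both. Of these, 17 were lower in both (ACTB, ACTG1, DIAPH1, CDC42EP3, MYH9, MYH10, MYL6, MYLK, TPM1, CNN2, CALD1, ACTN1, ACTN4, FLNA, VCL, TLN1 and PXN), as were 10.8% of the 12274 genes tested in both. PFN1, at the limit, and TMSB10 were called lower in 1321N1 alone (6.53% of all genes), and ARPC1B, CAPZB, EZR, TAGLN2, TPM4 and ZYX in LN18 alone (11.4%), but of these 8 the difference between the lines was called for EZR and not for the others. With HC alone 5 of 36 were lower in both (ACTB, ACTG1, ACTN1, CNN2 and MYLK, against 1.49% of 11847 genes), 18 in 1321N1 alone (15.5%) and 1 in LN18 alone (0.658%), and the difference was called for 10 of the 18. In LN18 the HC calls of ACTB and ACTG1 ended with quantile normalization (-0.56 and -0.34), and that of ACTN1 without HC replicate 2 (-0.58), and the EGCG+HC call of TPM4 in LN18 ended without control replicate 2 or 3 (-0.57 and -0.56). The test of the difference itself called 13 members for EGCG+HC, 4 higher and 9 lower in LN18 (15.0 and 18.2% of all 13989 genes, 33.2% in either direction). It called 13 members for HC, 13 higher and 0 lower in LN18 (19.6 and 12.6% of all 13559 genes, 32.2% in either direction, and 5 members lower by limma at an unadjusted p under 0.05). For EGCG it called 4 members, 2 in each direction (5.59 and 11.4% of all 13444 genes, 17.0% in either direction). Shares of members near those of all genes are not a result about the members, and the HC dose in LN18 was the lower one.

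**Figure D3:**
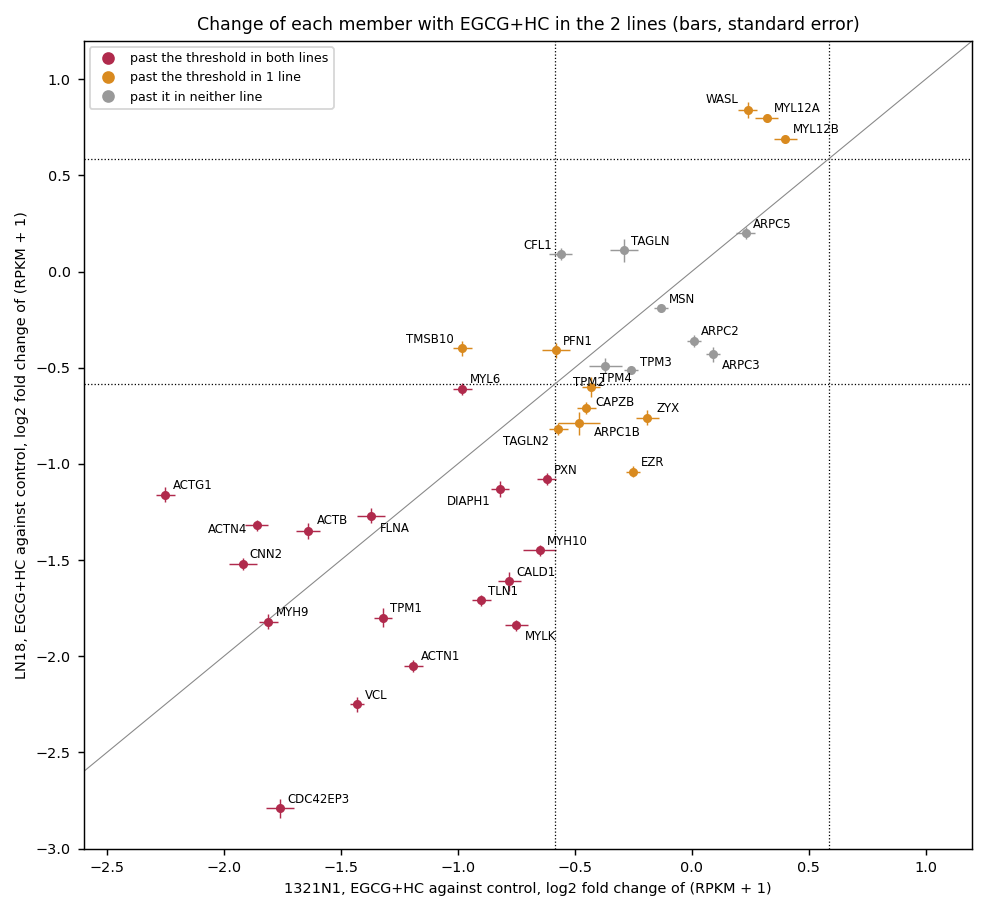
Each point is 1 of the 36 members tested in both lines, with its log2 fold change for EGCG+HC against control in 1321N1 on the x axis and in LN18 on the y axis. Bars are standard errors, dotted lines mark a 1.5-fold change and the grey line marks equal change. The 17 members past the threshold in both lines lie at the lower left, with ACTG1 above the line of equal change and CDC42EP3, VCL and ACTN1 below it, and MYL12A, MYL12B and WASL lie at the upper right.

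Whether the combination did more than its parts was tested against the 2 single changes added up on the log2 scale. In 1321N1, 11 of 37 members came out above the sum (10.3% of all 13727 genes) and 1 below it (12.8%, and 23.1% in either direction), with a median of 0.35 against -0.09 for all genes. TPM1 was the furthest above, at 1.23 ± 0.06 (SE, adjusted p = 1.09e-07), followed by MYL12A at 1.16 ± 0.08, TPM4 at 1.06 ± 0.05 and TAGLN2 at 0.91 ± 0.06. ACTB (0.74 ± 0.07), MYH9 (0.76 ± 0.08) and CDC42EP3 (0.66 ± 0.09) were also above it, that is, less reduced by both agents than the single changes add up to. The member below the sum was FLNC, at -0.87 ± 0.09.

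In LN18 the members stood near all genes, with 10 of 38 below the sum (23.1% of all 13686 genes) and 3 above it (14.5%, and 37.6% in either direction), and a median of -0.30 against -0.13 for all genes. CDC42EP3 lay -2.21 ± 0.09 (SE, adjusted p = 4.34e-09) from the sum, CALD1 -1.25 ± 0.06, MYH9 -1.20 ± 0.07, VCL -0.94 ± 0.06, TLN1 -0.82 ± 0.07, ACTN1 -0.81 ± 0.05 and TPM1 -0.76 ± 0.06. CNN1 lay -2.18 ± 0.14 from it, its rise with EGCG being absent with EGCG+HC, but it was tested only through its EGCG libraries. The members above the sum were MYL12A, at 1.71 ± 0.06 (SE, adjusted p = 1.55e-09), MYL12B (0.90 ± 0.07) and PFN1 (0.61 ± 0.08), of which MYL12A and MYL12B were also above it in 1321N1, MYL12B not with quantile normalization (0.49). PFN1 lay at the limit. In LN18 its call ended without control replicate 1 (0.58), HC replicate 3 (0.55) or EGCG+HC replicate 1 (0.58) and with quantile normalization (0.28). In 1321N1 PFN1 stood 0.59 ± 0.10 from the sum, a call that ended without control replicate 1, EGCG replicate 1 or 2, HC replicate 3 or EGCG+HC replicate 2 (0.53 to 0.58), and the number of members above the sum fell to 9 without control replicate 1 or without EGCG replicate 1 or 2. Whether the departures from the sum differ between the lines was not tested. A median-ratio scaling moved the median of all genes to 0.02 and 0.03 and gave 13 members above and 1 below the sum in 1321N1, and 5 above and 8 below in LN18. The shares of all genes with this scaling are not given, so that these counts describe the scaling only. Without 1321N1 EGCG replicates 2 and 3 the number past the threshold in 1321N1 was 13.

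Set against HC alone, EGCG+HC raised 3 members (12.2% of all 13864 genes) and lowered 1 (7.23%, and 19.4% in either direction) of 37 in 1321N1, and raised 2 (19.5% of all 14165 genes) and lowered 15 (25.9%, and 45.4% in either direction) of 37 in LN18. In 1321N1 the members raised were MYL12A, MYL12B and TPM4 and the member lowered was FLNC. In LN18 the members raised were again MYL12A (0.86 ± 0.05) and MYL12B (1.06 ± 0.06), and the largest falls were CDC42EP3 (-2.64 ± 0.06), VCL (-1.84 ± 0.05) and CALD1 (-1.83 ± 0.05).

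**Figure D4:**
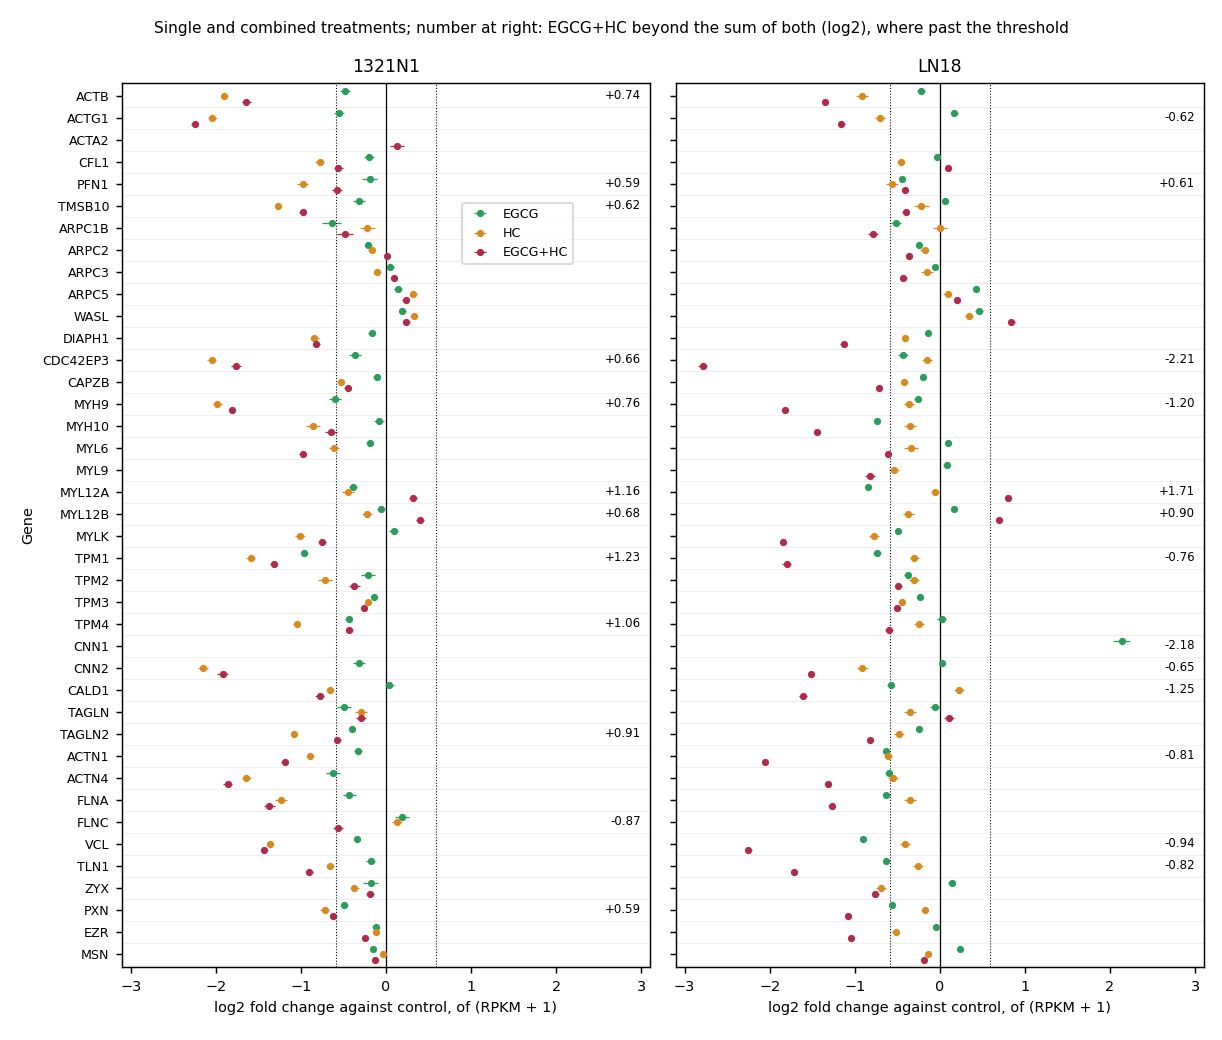
Points give the log2 fold change against control with EGCG (green), HC (orange) and EGCG+HC (red) for each gene, in 1321N1 on the left and LN18 on the right, with standard errors as bars and dotted lines at a 1.5-fold change. Numbers at the right edge give the distance from the added single changes where it passed the threshold. Red lies near orange for most members in 1321N1 and left of both single treatments for CDC42EP3, MYH9, VCL and CALD1 in LN18.

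Other genes of the pathway, 139 in 9 lists, were set beside the members, with levels as mean ± SD of 3 libraries and changes by limma as log2 fold change ± SE. Of the lists, 8 are described one by one. With EGCG+HC, 44 of 117 tested were lower and 7 higher in 1321N1 (18.0 and 23.1% of all genes), with a median of -0.39, and 53 of 117 lower and 7 higher in LN18 (22.2 and 24.1%), with a median of -0.46. With HC alone, 38 of 117 were lower and 6 higher in 1321N1 (17.7 and 18.8% of all genes), and 1 of 120 lower and 6 higher in LN18 (2.26 and 9.48%). With EGCG alone, 3 of 115 were lower and 2 higher in 1321N1 (1.83 and 3.14%), and 10 of 117 lower and 11 higher in LN18 (9.70 and 9.11%), so that the lists stood near all genes with EGCG.

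Upstream of the filaments, the SRF coactivator MKL2 went from 3.17 ± 0.121 RPKM to 0.771 ± 0.0595 in 1321N1 (-1.24 ± 0.06) and from 3.26 ± 0.131 RPKM to 0.885 ± 0.0330 in LN18 (-1.17 ± 0.05), and its relative MKL1 went from 8.95 ± 0.463 RPKM to 5.50 ± 0.239 in 1321N1. MKL2 lay under 1 RPKM with EGCG+HC in both lines, so that it passed the limit only through its controls, where it is high. Of the 8 symbols in this list, 4 could be tested. In all, 2 of the 4 tested SRF regulators were lower in each line (18.0% of all genes in 1321N1 and 22.2% in LN18), in LN18 MKL2 and FHL2, a LIM protein that binds SRF (-0.70 ± 0.06).

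Of the formins beside DIAPH1, 4 of 8 tested were lower in 1321N1 (18.0% of all genes) and 4 of 9 in LN18 (22.2%). INF2 went from 27.3 ± 2.78 RPKM to 14.6 ± 0.572 in 1321N1 and from 28.5 ± 1.99 RPKM to 9.19 ± 0.329 in LN18, FHOD1 from 10.0 ± 0.724 RPKM to 5.33 ± 0.122 and from 13.5 ± 0.310 RPKM to 2.78 ± 0.0777, FMN2 from 8.67 ± 0.277 RPKM to 3.48 ± 0.114 in 1321N1 and FMNL1 from 14.0 ± 0.590 RPKM to 4.33 ± 0.0634 in LN18. Of the other Arp2/3, WASP and WAVE genes, 3 of 17 were lower and 1 higher in 1321N1 (18.0 and 23.1% of all genes) and 5 of 16 lower and 2 higher in LN18 (22.2 and 24.1%). The lower ones in 1321N1 stood at the share of all genes and are not a result about this list. The higher ones included the WAVE complex genes ABI1 in 1321N1 (0.89 ± 0.04) and WASF1 in LN18 (1.37 ± 0.03), and the lower ones CYFIP1 (-0.84 ± 0.04) and WIPF1 (-0.93 ± 0.06) in 1321N1 and the Arp2/3 cores ACTR2 (-0.90 ± 0.03) and ACTR3 (-0.81 ± 0.04) in LN18.

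Of the other monomer, severing and capping factors, 4 of 17 were lower in 1321N1 (18.0% of all genes) and 5 of 18 lower and 2 higher in LN18 (22.2 and 24.1%). The lower ones stood near the shares of all genes and are not a result about this list. TMSB4X, thymosin beta-4, went from 421 ± 7.42 RPKM to 150.0 ± 1.93 in 1321N1, and the cofilin phosphatase SSH3 fell in both lines (-0.91 ± 0.09 and -1.91 ± 0.08). GSN, gelsolin, fell in 1321N1 (-0.84 ± 0.07), and in LN18 CAP2 fell (-1.43 ± 0.04) and TMOD1, a pointed-end cap, rose (1.55 ± 0.07). TMOD1 stood at 0.726 ± 0.139 RPKM in LN18 controls and at 4.03 ± 0.136 with EGCG+HC. It passed the 1 RPKM limit only through its EGCG+HC libraries, the group in which it is high. In LN18 the share of lower genes was above 0.5 in the lists of crosslinkers, adaptors and myosins alone, against 22.2% of all genes. Of the other crosslinkers and bundlers, 9 of 17 were lower and 1 higher in 1321N1 (18.0 and 23.1% of all genes). The lower ones included PALLD, palladin, from 24.9 ± 0.198 RPKM to 5.12 ± 0.0924, and FSCN1, fascin (-1.13 ± 0.10). In LN18, 14 of 20 were lower and 1 higher (22.2 and 24.1% of all genes). The largest falls were ANLN, anillin of the cytokinetic ring, from 135 ± 7.10 RPKM to 28.4 ± 1.01, SPTAN1, a spectrin (-2.09 ± 0.03), and PDLIM7 (-2.05 ± 0.06).

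Of the other adhesion adaptors, 8 of 19 were lower and 2 higher in 1321N1 (18.0 and 23.1% of all genes) and 10 of 16 lower in LN18 (22.2%). In 1321N1 AJUBA (-1.71 ± 0.09) and TNS1, tensin 1 (-1.31 ± 0.06), fell and TES, testin, rose from 0.245 ± 0.0839 RPKM to 2.03 ± 0.0583. TES passed the 1 RPKM limit only through its EGCG+HC libraries, the group in which it is high. In LN18 TNS3, tensin 3, fell from 22.8 ± 0.903 RPKM to 2.62 ± 0.0255, and TGFB1I1 (-1.31 ± 0.06) and the integrin-linked kinase ILK (-1.27 ± 0.03) fell as well. Of the other myosins, 4 of 10 were lower in 1321N1 (18.0% of all genes) and 7 of 9 in LN18 (22.2%). The 3 largest falls were in the same genes in both: MYO18A (-1.46 ± 0.04 and -2.46 ± 0.04), MYO1C (-1.11 ± 0.05 and -1.72 ± 0.04) and MYO9B (-0.82 ± 0.05 and -1.41 ± 0.05). Of the other Cdc42 effectors and membrane linkers, 4 of 8 were lower in 1321N1 (18.0% of all genes), among them CDC42EP1 (-1.13 ± 0.07), CDC42BPB (-0.83 ± 0.04) and CDC42EP4 (-0.75 ± 0.05). In LN18 2 of 8 were lower, near the 22.2% of all genes: CDC42BPB (-1.47 ± 0.04) and RDX, radixin (-0.64 ± 0.05).

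**Figure D5:**
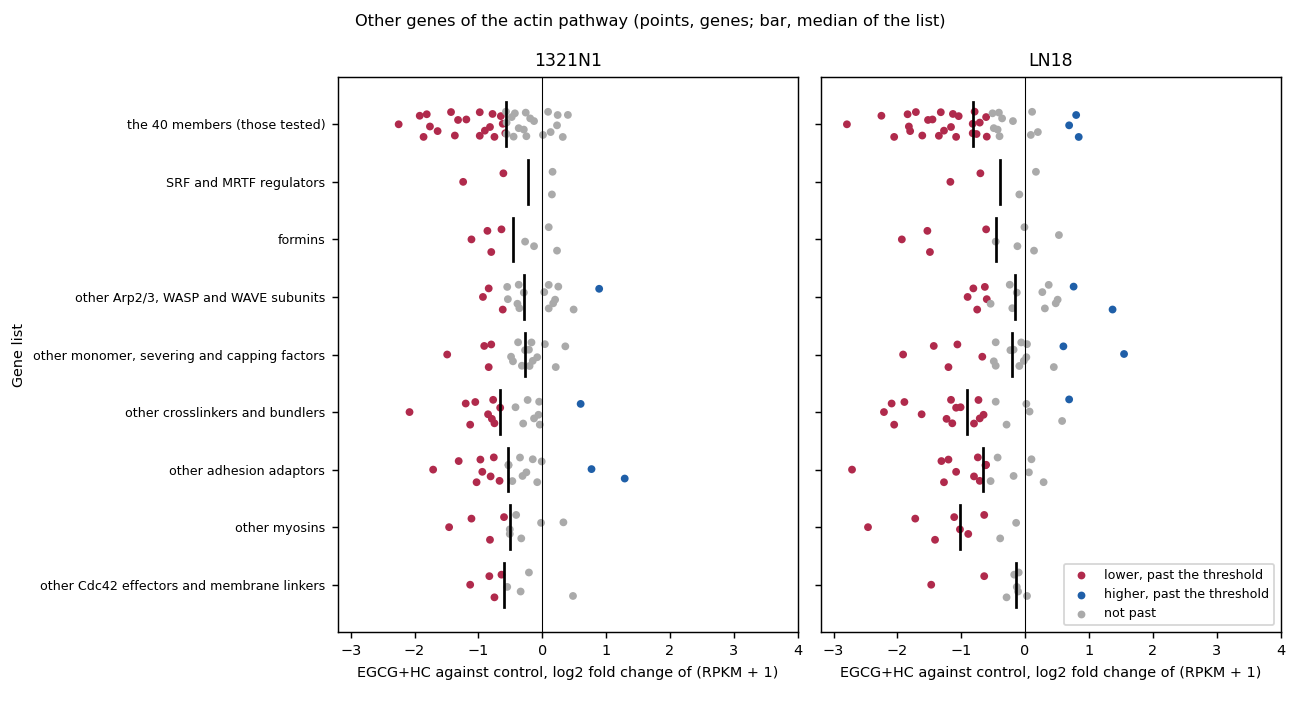
Each point is 1 tested gene, placed by its log2 fold change with EGCG+HC against control (x axis) and its list (y axis), for 1321N1 on the left and LN18 on the right. Red points passed the threshold as lower, blue as higher, grey did not pass, and black bars are list medians, with the tested members in the top row. Medians lie below 0 in each list shown in both lines.

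Markers of other cell types moved with the treatments too. Fibroblast markers (4 of 5 at 1 RPKM or more in 1321N1) summed to between 346 and 393 RPKM in 1321N1 controls and between 80.3 and 91.7 with EGCG+HC, with COL1A1 and COL1A2 the largest parts. In LN18 they summed to at most 22.3 in controls, between 34.3 and 37.3 with HC and between 5.76 and 6.09 with EGCG+HC. PDGFRB was the largest part there, at 16.3 to 18.3, 30.1 to 32.9 and 4.28 to 4.67 RPKM. COL1A1 and COL1A2 did not pass 2.28 in any LN18 library. Epithelial markers summed to between 134 and 144 RPKM in LN18 controls and between 57.5 and 59.7 with EGCG+HC, and in 1321N1 to between 12.0 and 12.4 and between 25.8 and 29.6. KRT8 and KRT18 made up most of these sums, and in 1321N1 mainly KRT18, at 10.5 to 10.7 RPKM in controls and 22.2 to 26.1 with EGCG+HC. EPCAM and CDH1 did not pass 0.796 and 1.08 RPKM in any library. VIM, between 535 and 560 RPKM with EGCG+HC in 1321N1 and between 170 and 172 in LN18, also lay below its controls. Blood markers reached at most 8.72 RPKM in sum. For smooth muscle, SMTN was the one marker of 5 above 5 RPKM in any library, while the defining MYH11 and DES did not pass 0.343. The part of any of these cell states in the members' changes was not tested.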

How the data were processed

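The 24 libraries were made with a kit that does not keep the strand and read as paired ends. Reads were trimmed and checked (FastQC) by the authors and mapped to GRCh37 (hg19), and the RPKM deposited per gene come from the CLC Genomics Workbench. For the annotation and for how reads were counted, the sources used here give nothing. Reads of antisense, overlapping or near-identical genes can therefore be shared between them.

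For the tests, limma 3.58.1 was run in R 4.3.3 on log2(RPKM + 1), with a trended prior, for genes averaging 1 RPKM or more. Pairwise fits held 6 libraries, and fits against the added single changes or between lines held 12. The fits were tested on simulated data. Python 3.11.15, numpy 2.4.6, pandas 2.3.3 and matplotlib 3.10.9 made tables and figures. Of the low values used to recover depth, 60.0 to 91.8% per library were whole reads within 0.1, lowest in 1321N1 EGCG replicates 2 and 3. The p-values measure the spread between libraries. Names that were turned into dates or repeated (25 to 27 a group) were left out. Of 34229 symbols 20886 are in GENCODE v44lift37, which gave the GRCh37 coordinates and the stretches of 50 bases of each canonical transcript that recur in other genes.

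The members and lists were chosen with earlier results of these data known. Per-library values are given for ACTB, for members called with EGCG+HC in both lines and for the 6 largest changes called in each line, and up to 3 genes of each list and line are named. Of the pathway genes, 1 list and 1 further gene are not reported here, though the counts over all lists include them. Per-library values of MYL12A, MYL12B, MYL9, WASL, CNN1, TMSB10, CFL1, TPM4, EZR and FLNC were added after their values were seen. Alternatives were another pseudocount, filters on low values, 3 scalings, other fold limits, a fit over a line's 12 libraries, a replicate block and leaving out each library.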

Additional observations from a re-analysis of the deposited data

Results flagged for a closer look

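The responses of the following members differed between LN18 and 1321N1 by the test of the difference itself, given here as the LN18 minus the 1321N1 log2 change, with line, serum and, for HC and EGCG+HC, the HC dose impossible to tell apart.

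With EGCG, at the same dose in both lines, the difference was 2.04 for CNN1, 0.73 for ACTG1, -0.61 for CALD1 and -0.66 for MYH10. CNN1 passed the 1 RPKM limit there only through its LN18 EGCG libraries. CALD1 and MYH10 were lost with quantile normalization and with a median-ratio scaling, and without 1321N1 EGCG replicates 2 and 3 the number of members called was 4.

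With HC all 13 differences were positive, that is, 1321N1 at the higher dose changed further down. They were 1.90 for CDC42EP3, 1.62 for MYH9, 1.34 for ACTG1, 1.29 for TPM1, 1.24 for CNN2, 1.08 for ACTN4, 1.06 for TMSB10, 0.98 for ACTB, 0.95 for VCL, 0.88 for both CALD1 and FLNA, 0.80 for TPM4 and 0.59 for TAGLN2, a call that ended with median-ratio scaling (0.50) and on leaving out 1321N1 control replicate 1, HC replicate 1 or 3, or LN18 control or HC replicate 2 (0.54 to 0.58).

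With EGCG+HC 9 of 13 differences were negative. LN18 lay further down by -1.08 for MYLK, -1.04 for CDC42EP3, -0.91 for MYL9, -0.86 for ACTN1, -0.83 for VCL, -0.83 for CALD1, -0.81 for MYH10, -0.81 for TLN1 and -0.79 for EZR, and LN18 lay higher by 1.10 for ACTG1, 0.71 for FLNC, 0.65 for CFL1, not called with quantile normalization (0.45), and 0.60 for WASL, a call that ended without 1321N1 control replicate 3, EGCG+HC replicate 2, or LN18 control replicate 1 or EGCG+HC replicate 2 (0.56 to 0.58). MYL9 was near 0 in every 1321N1 library and FLNC in every LN18 library, so that these 2 differences are the response of 1 line.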

How the results depend on the processing

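Counts of members past the threshold rested most on the limit on the fold change. The shares of all genes under the settings below are not given, so that the counts describe the settings and are no result about the members. Without it (adjusted p alone) they were 25, 36, 28, 30, 31, 32, 31, 35, 25, 28, 32 and 31 for 1321N1 EGCG, 1321N1 EGCG+HC, 1321N1 EGCG+HC against HC, LN18 EGCG, LN18 HC, LN18 EGCG+HC against HC, the change beyond the sum in 1321N1 and in LN18, the line differences with EGCG, HC and EGCG+HC, and the controls. With a limit of 2 they were 0, 13, 10, 0, 1, 0, 17, 10, 3, 5, 1, 7, 3 and 9 for 1321N1 EGCG, HC, EGCG+HC and EGCG+HC against HC, the same 4 in LN18, both sums, the 3 line differences and the controls. Quantile normalization gave 2 for 1321N1 EGCG+HC against HC and 2 for the line difference with EGCG, and a median-ratio scaling 7 for 1321N1 EGCG, 11 for LN18 HC and 2 for the line difference with EGCG. Leaving out 1 library at a time gave 1 to 5 for 1321N1 EGCG, 22 to 23 for HC, 18 to 20 for EGCG+HC and 3 to 4 for EGCG+HC against HC, 8 to 10, 6 to 7, 26 to 27 and 16 to 18 in LN18, 10 to 13 and 12 to 16 for the sums, 4 to 5, 12 to 13 and 12 to 14 for the line differences and 17 to 18 for the controls. Of 541 alternatives for the 34 EGCG+HC values of the 17 named members, 533 kept direction and call, 8 lost the call (each with a limit of 2) and 0 reversed.

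Replicate numbers are shared between groups, but deviations of same-numbered libraries correlated between -0.106 and 0.123, over 0.1 in 2 of 36 pairs, so that they share only a number. A replicate block left each count as it was (4, 23, 19 and 4 in 1321N1, 9, 6, 27 and 17 in LN18).

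The data are 3 libraries a group, RPKM without counts and 1 time point, and protein was not measured. Changes under 1.5-fold were not called because of the limit set.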

Other observations

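Muscle actins outside the member list were looked at after the members were seen. ACTG2, the gamma-actin of smooth muscle, lay between 0.889 and 1.38 RPKM in LN18 controls and between 3.55 and 3.69 with EGCG, the same libraries in which CNN1 was high, and between 1.44 and 1.76 with EGCG+HC. In 1321N1 it lay between 0.031 and 0.111 in controls and between 0.967 and 1.11 with EGCG+HC. ACTA1 and ACTC1, the striated muscle actins, did not pass 0.753 and 0.506 RPKM in any library. MYH3, an embryonic muscle myosin heavy chain, lay between 0.390 and 0.516 RPKM in 1321N1 controls, between 1.90 and 2.14 with HC and between 4.43 and 5.12 with EGCG+HC, and in LN18 between 0.229 and 0.264 in controls and between 0.965 and 1.13 with EGCG+HC.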
